A study of Mus musculus with 24 samples.

Results

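Wild-type mouse macrophages were given interleukin-4 (IL-4) for 24 h, washed and left for another 24 h. They were compared with cells that had never met the cytokine and are recorded with the same 24 h washout. A gene was compared where either group averaged 1 CPM (reads scaled to the size of the library, as the authors deposited them) or more, which took in 11369 of the 23420 genes in the memory table. Dio2 was the lowest gene taken in, with 1.01 CPM in the higher group, and Rab4a the highest one left out, with 0.999 CPM. The study sequenced poly-A RNA of 24 samples of bone marrow-derived macrophages, 16 in the memory experiment and 8 in an antagonist experiment, with 2 samples in every group. It is about the nuclear receptor PPARγ and what macrophages keep of an earlier stimulus.

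Marrow came from male C57BL/6 mice aged 3 months and was grown into macrophages for 6 days with M-CSF. IL-4 is labelled at 20 ng per µl, and washed cells went back into the differentiation medium. The washed-out and the never-exposed wild-type cells are the groups compared throughout. Set beside them are knockout-labelled cells (PpargKO) with the same treatments, wild-type cells 3 h into a first IL-4 exposure, and, from the antagonist experiment, cells with IL-4 for 24 h and cells with the DMSO and ethanol vehicle for 24 h. The labels do not say which part of Pparg was removed, by which Cre, or whether both samples of a group stem from different mice or dishes. Every p therefore measures the spread between these samples, which may be technical.

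IL-4 binds a receptor that activates JAK kinases and the transcription factor STAT6, and in macrophages it switches on the alternatively activated programme of lectins, secreted proteins and lipid genes. Feedback proteins such as SOCS1 and CISH damp this signal.

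The authors deposited 1 averaged column per group. Both libraries of a group were separated from it by their read steps, and below they are called the deeper and the shallower library, always given in that order. The 4 libraries compared held an estimated 8977840 to 10213606 reads in genes, and 3 reads corresponded to between 0.301 and 0.340 CPM. All 9 macrophage markers checked were present in both groups, among them Csf1r and Emr1. The shallower washed-out library differed from the other 3 in its counts: many genes that share sequence with copies elsewhere in the genome are lower in it. Ubb, a ubiquitin gene with many copies, read 368 and 2.95 CPM in the washed-out libraries, against 314 and 315 CPM in never-exposed ones. Of the genes compared, 824 (7.25%) are open to this difference and are called counting-sensitive below.

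A log2 ratio below is that of the authors' means with 1 CPM added to each, which understates the change of low genes. limma, run on the libraries after separation, gave the standard errors (SE) and adjusted p, and genes are said to rise or fall only at an adjusted p under 0.05. A day after the cytokine was gone, 789 of 11350 genes tested (6.95%) were higher and 749 (6.6%) lower in washed-out than in never-exposed cells. The libraries of both groups lay apart for 1528 of these 1538 genes, a group that could not be separated counting by its mean. Called genes lie apart largely because they were called, so this count adds nothing to the calls. At an unadjusted p under 0.05 there were 3097 genes. Each count of calls in a gene list below is to be read beside the 6.95% higher and 6.6% lower of all genes tested. Most changes were small: 617 of the higher and 599 of the lower calls lay within 2-fold. Beyond 2-fold, 179 genes (1.57%) were higher and 151 (1.33%) lower, and without the counting-sensitive genes these numbers were 176 and 84. Beyond 4-fold the tilt was plainer, with 28 genes higher and 2 lower once the counting-sensitive ones were set aside. Calls in the lower direction numbered 286 without the deeper never-exposed library and 1436 without the deeper washed-out one, and calls in the higher direction 492 and 1056.

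**Figure D1:**
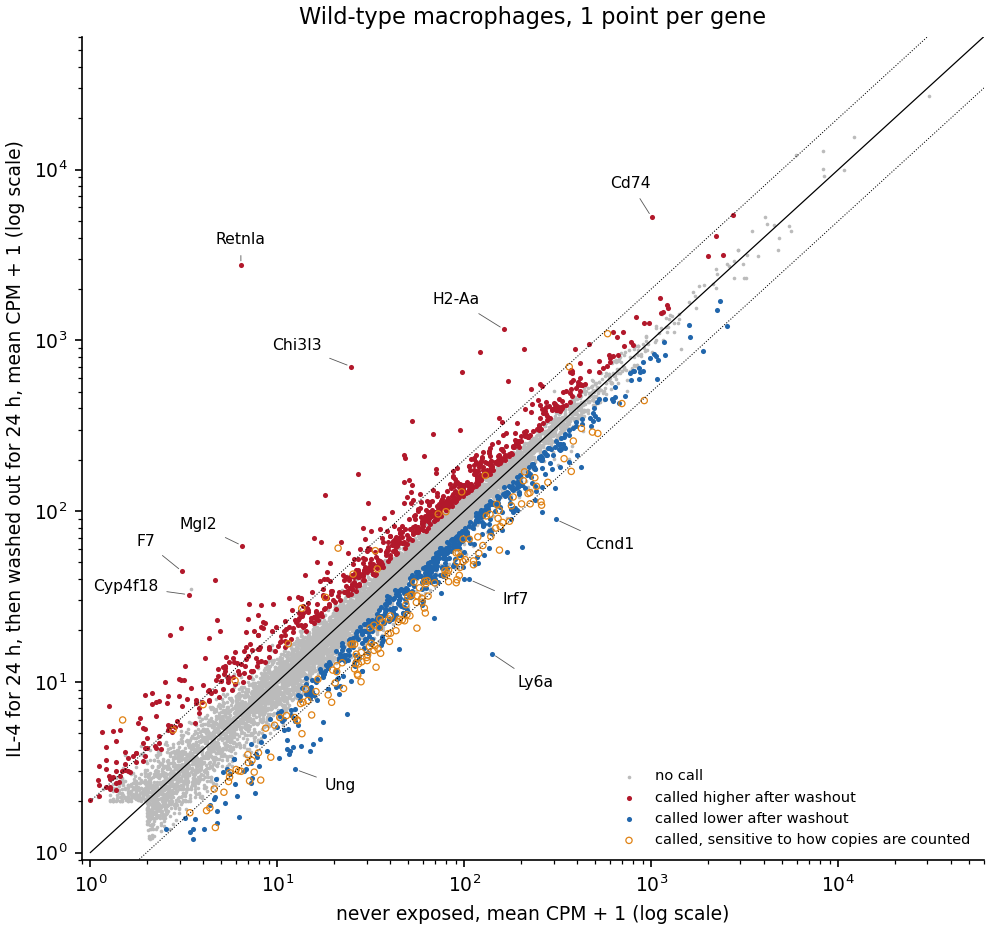
Each point is 1 gene, with the mean of never-exposed wild-type cells on the horizontal and of washed-out wild-type cells on the vertical axis, in CPM plus 1 on log scales; limma calls and counting-sensitive genes are marked. Retnla and Chi3l3 stand far above the diagonal, the class II genes H2-Aa, H2-Ab1 and H2-Eb1 form a group above it, and Ly6a stands farthest below.

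Markers of IL-4 action led the genes that were higher. Of 34 tested members of the list of IL-4 and STAT6 markers, 28 were called higher and 1 lower, the median log2 ratio being 0.89, against -0.01 over all genes compared. By limma-voom 17 were called higher. The list was drawn from what IL-4 is known to induce, but with earlier results of these data known, so its count of calls is not independent of them. Its median stood at 3.83 in cells 24 h into IL-4 over vehicle. Retnla, which encodes the secreted protein RELMα, averaged 2760 CPM in washed-out cells, whose libraries could not be separated, and read 4.69 and 6.07 CPM in never-exposed ones (log2 ratio 8.76 with SE 0.35, limma adjusted p = 5.8e-09). Its washed-out spread did not enter that test. The chitinase-like secreted protein gene Chi3l3 read 723 and 679 CPM in washed-out libraries, against 27.3 and 20.2 CPM in never-exposed ones (4.82, SE 0.13, adjusted p = 3.6e-12). Both washed-out libraries stood far above both others.

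Several surface receptors of this list were retained too. Mgl2, a galactose-binding C-type lectin, read 72.1 and 51.3 CPM in washed-out libraries, against 5.11 and 5.85 CPM in never-exposed ones (log2 ratio 3.27 with SE 0.14, limma adjusted p = 3.3e-10). Itgax, the CD11c integrin chain, read 210 and 195 CPM in washed-out and 48.4 and 46.3 CPM in never-exposed libraries (2.08, SE 0.14, adjusted p = 3.3e-08). In each case the groups lay well apart. Clec10a, the lectin next of kin to Mgl2, rose by 1.60 on the log2 scale and Clec7a, the β-glucan receptor dectin-1, by 0.98. Mrc1, the mannose receptor, did not pass the test (0.21, adjusted p = 0.17).

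Other members had moved back most of the way. Arg1, which splits arginine, read 1.00 and 2.27 CPM in washed-out libraries, against 0.522 and 0.331 CPM in never-exposed ones. The groups lay apart at a few reads per library, and the difference missed the threshold (log2 ratio 0.89 with SE 0.28, limma adjusted p = 0.059). In the antagonist experiment, which was normalized separately, Arg1 stood at 775 CPM with IL-4 for 24 h, against 0.146 CPM with vehicle. The PD-1 ligand gene Pdcd1lg2 read 1.00 and 1.70 CPM in washed-out and 0.104 and 0.442 CPM in never-exposed libraries, a few reads each (0.89, adjusted p = 0.0063), and was not called without the deeper never-exposed library. Tmem26, a membrane protein gene, had 7.93 and 7.94 CPM in washed-out and 3.55 and 3.09 CPM in never-exposed libraries (1.05), and at 24 h of IL-4 its log2 ratio over vehicle was 7.48.

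Myc, the growth-promoting transcription factor, went against its list. It read 6.63 and 8.06 CPM in washed-out libraries and 14.2 and 15.1 CPM in never-exposed ones (log2 ratio -0.91 with SE 0.19, limma adjusted p = 0.0040). Its ratio was 3.80 at 24 h of IL-4 over vehicle. The other uncalled members were Ccl7 (0.01), Il4ra (-0.23) and Chi3l4, a close relative of Chi3l3 that is counting-sensitive.

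Of 16 tested genes of the IL-4 receptor, JAK-STAT and feedback list, 1 was called higher and 1 lower, near the 6.95% and 6.6% of all genes, and the list median was 0.06. Stat6 read 331 and 323 CPM in washed-out libraries, within the 314 and 333 CPM of never-exposed ones (log2 ratio 0.01 with SE 0.07, limma adjusted p = 0.94). Il4ra, the ligand-binding chain, read 257 and 253 CPM in washed-out and 281 and 316 CPM in never-exposed libraries, which missed the threshold (-0.23, adjusted p = 0.078). Socs1, the feedback inhibitor, fell just short of the 1 CPM floor, at 0.999 CPM in washed-out and 0.917 CPM in never-exposed cells. It stood at 268 CPM at 3 h of a first exposure. Cish, the other feedback gene, was called higher (3.71 and 6.24 CPM in washed-out, 0.313 and 0.662 CPM in never-exposed libraries). It is counting-sensitive by the rule used, although it was higher, not lower, in the shallower washed-out library. Its call was kept in every setting in which it was tested. The phosphatase gene Ptpn6 was called lower (-0.32, adjusted p = 0.0059). That call was lost by limma-voom, without group weights and with only the libraries of the groups compared (adjusted p up to 0.102).

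**Figure D2:**
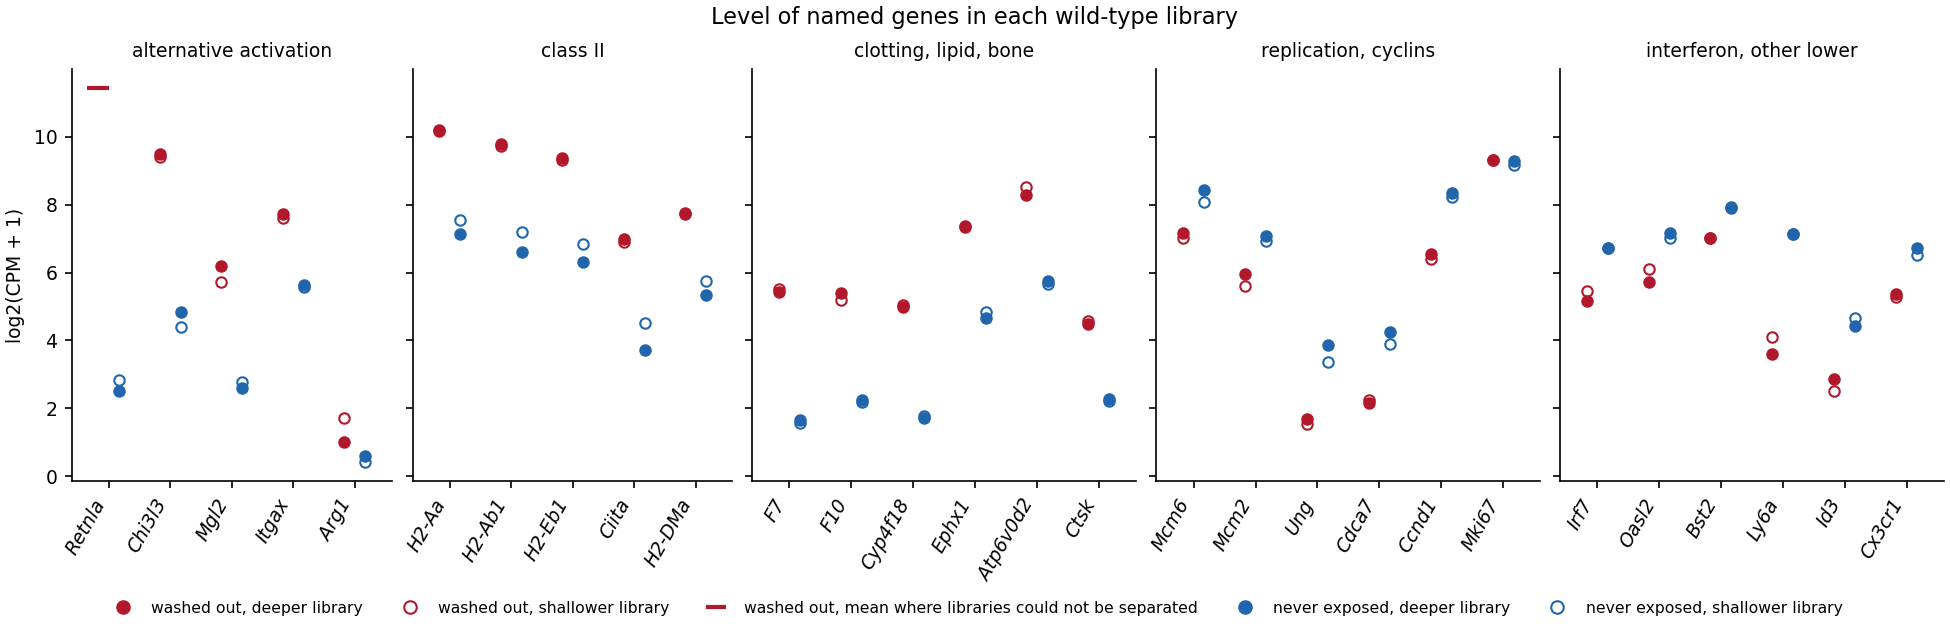
Log2 of CPM plus 1 for 28 named genes, 1 point per library, washed-out wild-type cells left of never-exposed ones; a group that could not be separated is drawn as its mean. The points of the groups lie apart for each gene shown, with the smallest gaps for Mki67 and Arg1.

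Genes that present antigen on MHC class II rose together. These molecules carry peptides from the endosome to the surface for helper T cells; the invariant chain Cd74 escorts them, H2-DM loads them and Ciita is the master switch of their transcription. Of 16 tested members 9 were called higher and 0 lower, the median log2 ratio being 0.89, or 1.31 without the counting-sensitive members. Without the deeper never-exposed library the number called higher was 7, and in the other settings tried it was 8 to 10.

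The chains themselves changed by similar amounts. H2-Aa read 1148 and 1173 CPM in washed-out libraries, against 138 and 185 CPM in never-exposed ones (log2 ratio 2.84 with SE 0.13, limma adjusted p = 5.1e-10). H2-Ab1, its β-chain partner, read 875 and 841 CPM in washed-out and 95.4 and 145 CPM in never-exposed libraries (2.82, SE 0.17). H2-Eb1, a further class II β-chain gene, read 659 and 637 CPM in washed-out and 78.6 and 114 CPM in never-exposed libraries (2.74, SE 0.15). For all these chains, the shallower never-exposed library was the higher of its pair and still lay far below both washed-out libraries.

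Ciita read 127 and 119 CPM in washed-out libraries, against 12.1 and 21.8 CPM in never-exposed ones (log2 ratio 2.79 with SE 0.23, limma adjusted p = 3.8e-07). The loading genes H2-DMa (2.17) and H2-DMb1 (1.63), Cd74 (2.39), and Ctss, which trims the invariant chain (0.98), were called higher as well. Among the factors that bind class II promoters, Rfx5 was called higher (0.54, adjusted p = 0.026, but 0.215 without the deeper never-exposed library), whereas Rfxank (0.15), Rfxap (-0.05), Nfya (-0.23) and Nfyb (-0.46) were not called. The partner genes H2-DMb2 and Nfyc are counting-sensitive.

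In the separately normalized antagonist experiment, H2-Aa stood at 944 CPM with IL-4 for 24 h and 811 CPM with vehicle (log2 ratio 0.22), and H2-Eb1 had a ratio of 0.03. The H2-Aa level of those vehicle cells was nearer to the washed-out than to the never-exposed cells of the memory table, as far as levels can be set across tables normalized separately. At 3 h of a first exposure the ratios over the same never-exposed cells were -0.04 for H2-Aa and -0.37 for Ciita.

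Markers of other cells that carry class II were low. Of 12 dendritic-cell markers, Cd209a, Batf3 and Kmo reached 1 CPM, and their list summed to 29.2 and 27.1 CPM in washed-out libraries, against 11.998 and 18.2 CPM in never-exposed ones. Flt3 stood at 0.0502 CPM in washed-out and 0.107 CPM in never-exposed cells, and Zbtb46 at 0.471 CPM in washed-out and 0.218 CPM in never-exposed cells. The B-cell genes Ms4a1 and Pax5 were at 0 in both groups. The 9 B and plasma cell markers summed to 45.9 and 37.8 CPM in washed-out and 20.1 and 20.9 CPM in never-exposed libraries, nearly all of it Sdc1, the proteoglycan syndecan-1 (38.8 CPM in washed-out and 16.7 CPM in never-exposed cells). The part of these cells in the class II result was not tested. In bulk RNA, fewer cells of a type and less RNA per cell cannot be told apart.

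Promoter sequence is shown for the gene that led the rise and for class II chains, since the known regulators of these groups bind there. All sequences are from RefSeq (build GRCm38.p6), run from 250 bases before the gene's start to 50 after it and are given 5′ to 3′ on the gene's strand; 9135 of the 11369 genes had an entry. Capitals mark TTC and GAA with 4 bases between them, the spacing that STAT6 is known to favour, in Retnla, and CCAAT or its reverse complement ATTGG, the letters NF-Y is known to bind, in the class II genes. Both were searched on both strands, and they do not overlap in the sequences printed.
Retnla, chr16:48842359-48842658, + strand: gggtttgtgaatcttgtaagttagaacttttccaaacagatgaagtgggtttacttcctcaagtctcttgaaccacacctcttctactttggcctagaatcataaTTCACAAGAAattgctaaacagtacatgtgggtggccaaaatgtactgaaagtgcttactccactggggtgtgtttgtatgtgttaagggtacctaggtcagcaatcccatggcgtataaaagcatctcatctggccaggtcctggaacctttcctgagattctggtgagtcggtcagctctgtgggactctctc
H2-Aa, chr17:34287774-34288073, - strand: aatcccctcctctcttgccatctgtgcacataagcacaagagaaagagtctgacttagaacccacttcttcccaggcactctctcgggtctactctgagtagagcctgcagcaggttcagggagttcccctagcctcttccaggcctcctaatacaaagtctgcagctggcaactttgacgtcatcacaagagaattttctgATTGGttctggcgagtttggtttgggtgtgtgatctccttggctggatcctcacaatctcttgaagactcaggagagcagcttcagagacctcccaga
H2-Eb1, chr17:34305617-34305916, + strand: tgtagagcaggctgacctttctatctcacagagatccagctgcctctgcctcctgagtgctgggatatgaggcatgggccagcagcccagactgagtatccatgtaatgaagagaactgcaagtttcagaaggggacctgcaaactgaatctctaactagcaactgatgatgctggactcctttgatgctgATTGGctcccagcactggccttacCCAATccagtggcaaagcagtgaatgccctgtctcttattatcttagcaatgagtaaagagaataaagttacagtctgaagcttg
The match in Retnla begins 145 bases before the start. In H2-Aa the match begins 48 bases before the start, and in H2-Eb1 the matches begin 59 and 35 bases before it.

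CCAAT was present in 7 of the 12 class II promoters on hand (58.3%), against 39.6% of those on hand for the genes compared and 37.9% of all 27025 promoters. Of the 129 promoters on hand for genes beyond 2-fold higher, counting-sensitive ones left out, 39.5% had it. The TTC and GAA pair was present in 0 of the 12 class II promoters and 8 of those 129 (6.202%), against 5.495% for the genes compared and 6.99% of all promoters. A match is a description of letters in this window and says nothing of a factor's binding, and a missing match only that these letters are not there.

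Of the co-stimulatory and checkpoint ligands that accompany antigen presentation, 4 of 12 rose and 1 fell. Cd274, the PD-1 ligand PD-L1, read 74.9 and 82.5 CPM in washed-out libraries, against 27.5 and 27.9 CPM in never-exposed ones (log2 ratio 1.47 with SE 0.12, limma adjusted p = 4.8e-07). Cd80, a CD28 ligand, rose (0.89, adjusted p = 0.0031), and Cd86, the other CD28 ligand, had 19.9 and 22.5 CPM in washed-out and 25.8 and 33.5 CPM in never-exposed libraries without passing the test (-0.47, adjusted p = 0.11). Tnfsf9, the 4-1BB ligand, fell, with 4.62 and 4.99 CPM in washed-out and 15.9 and 17.1 CPM in never-exposed libraries (-1.59, SE 0.23, adjusted p = 0.00017). The inhibitory receptor gene Cd200r1 rose (0.68).

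Among Fc receptors the inhibitory one rose and an activating one fell. Fcgr2b, which dampens antibody signals, read 584 and 525 CPM in washed-out libraries, against 238 and 269 CPM in never-exposed ones (log2 ratio 1.13 with SE 0.09, limma adjusted p = 3.1e-06). Fcgr1, the high-affinity IgG receptor, read 93.9 and 103 CPM in washed-out and 185 and 178 CPM in never-exposed libraries (-0.88, SE 0.08, adjusted p = 3.0e-06). The activating receptors Fcgr4 (1.11) and Fcgr3 (0.67), however, were called higher, so the family did not divide by this role.

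Secreted clotting factors and bone-resorbing enzymes formed another retained group. F7, coagulation factor VII, read 42.4 and 44.4 CPM in washed-out libraries, against 2.19 and 1.99 CPM in never-exposed ones (log2 ratio 3.84 with SE 0.19, limma adjusted p = 9.9e-10). F10, factor X, which factor VII activates, read 41.6 and 35.6 CPM in washed-out and 3.76 and 3.53 CPM in never-exposed libraries (3.09, SE 0.17). Of 15 tested clotting and plasminogen genes, 6 were called higher and 1 lower. The number called higher was 3 without either never-exposed library. Plau, the urokinase that activates plasminogen, was the one that fell, with 97.9 and 104 CPM in washed-out and 200 and 181 CPM in never-exposed libraries (-0.91, adjusted p = 8.5e-07).

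Osteoclasts are bone-resorbing cells that form by fusion of macrophage precursors. Of 11 tested genes of cell fusion and bone resorption, 6 were called higher and 2 lower (median log2 ratio 0.97). Atp6v0d2, a proton-pump subunit needed for fusion, read 308 and 367 CPM in washed-out libraries, against 53.1 and 50.1 CPM in never-exposed ones (2.69, SE 0.13, adjusted p = 5.7e-10 by limma). Ctsk, the collagen-cutting cathepsin K, read 21.3 and 22.6 CPM in washed-out and 3.86 and 3.64 CPM in never-exposed libraries (2.27, SE 0.20). Acp5, the acid phosphatase used to stain osteoclasts (1.26), and Dcstamp, a fusion protein gene (1.23), rose as well. Tnfrsf11a, the RANK receptor that starts the osteoclast programme, fell (-0.62, adjusted p = 0.0012). That call was lost by limma-voom and without group weights (adjusted p up to 0.0887). Nfatc1, the transcription factor of that programme, read 105 and 109 CPM in washed-out and 108 and 112 CPM in never-exposed libraries (-0.04, adjusted p = 0.82). Without the deeper never-exposed library 4 of this list were called higher.

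Lipid genes rose in part. PPARγ and LXR are nuclear receptors that sense fatty acids and oxysterols and turn on lipid uptake and cholesterol export. Pparg itself read 19.0 and 22.6 CPM in washed-out and 24.2 and 21.9 CPM in never-exposed libraries, which overlap. Of 17 tested PPARγ targets, 5 were called higher and 0 lower, the median log2 ratio being 0.27, and the number was 3 without the deeper never-exposed library. The fatty acid carriers Fabp5 (138 and 84.3 CPM in washed-out, 44.0 and 49.4 CPM in never-exposed libraries, 1.23) and Fabp4 (1.10, adjusted p = 0.0038 by limma) were among them. Cd36, the scavenger receptor (0.21, adjusted p = 0.24), and Plin2, which coats lipid droplets (0.23, adjusted p = 0.23), did not pass.

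Of 13 tested genes of cholesterol efflux and LXR action, 7 were called higher and 0 lower, or 4 higher without the deeper never-exposed library. Abcg1, which exports cholesterol to HDL, read 164 and 168 CPM in washed-out libraries, against 65.2 and 73.9 CPM in never-exposed ones (log2 ratio 1.24 with SE 0.10, limma adjusted p = 4.3e-07). Scd2, a fatty acid desaturase, read 59.6 and 71.0 CPM in washed-out and 15.8 and 16.3 CPM in never-exposed libraries (1.96, SE 0.13). The exporter Abca1 (0.92), the phospholipid transfer protein Pltp (0.85) and Nr1h3, the gene of LXRα (0.81), rose too. Neither Abca1 nor Nr1h3 was called without the deeper never-exposed library, and over the settings tried the adjusted p reached 0.463 for Abca1 and 0.0805 for Nr1h3. In the list of sterol and fatty acid synthesis, 9 of 24 were called higher and 0 lower (median 0.28). Mvd, an enzyme of the mevalonate pathway, led them with 43.5 and 32.9 CPM in washed-out and 17.1 and 19.0 CPM in never-exposed libraries (1.04, adjusted p = 0.00059). Without the shallower never-exposed library 5 of these were called higher.

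Enzymes and receptors of lipid mediators were split, with 9 of 19 called higher and 5 lower. Cyp4f18, a cytochrome P450 of leukotriene breakdown, read 30.5 and 32.2 CPM in washed-out libraries, against 2.30 and 2.43 CPM in never-exposed ones (log2 ratio 3.27 with SE 0.23, limma adjusted p = 7.4e-08). Its ratio was 0.19 at 24 h of IL-4 over vehicle. Ephx1, an epoxide hydrolase, read 166 and 161 CPM in washed-out and 24.2 and 27.6 CPM in never-exposed libraries (2.61, SE 0.12). Ptger2, a prostaglandin E2 receptor, rose (40.6 and 42.4 CPM in washed-out, 11.2 and 14.9 CPM in never-exposed libraries, 1.60), whereas Ptger4, another receptor for the same ligand, fell (-0.62, adjusted p = 0.015, or 0.0895 without the deeper never-exposed library). Hpgd, which inactivates prostaglandins, fell, with 123 and 154 CPM in washed-out and 252 and 221 CPM in never-exposed libraries (-0.77, adjusted p = 0.00040). Without the deeper never-exposed library 6 were called higher and 2 lower.

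Of 16 tested metalloproteinases and inhibitors, 5 were called higher and 1 lower, and the number called higher was 5 or 6 in every setting tried. Mmp8, a collagenase first known from neutrophils, read 263 and 297 CPM in washed-out libraries, against 64.7 and 69.3 CPM in never-exposed ones (log2 ratio 2.05 with SE 0.10, limma adjusted p = 8.5e-10). Mmp12, macrophage elastase, read 825 and 954 CPM in washed-out and 417 and 364 CPM in never-exposed libraries (1.19, SE 0.09). The inhibitor gene Timp2 rose alongside (506 and 523 CPM in washed-out, 214 and 241 CPM in never-exposed libraries, 1.17). Adam8, a membrane protease, fell (-0.86), although its ratio at 24 h of IL-4 over vehicle was 2.30.

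Of 7 tested neutrophil markers Mmp8 rose and 5 others fell. S100a9, a calcium-binding protein abundant in neutrophils, read 16.2 and 13.2 CPM in washed-out and 44.5 and 43.1 CPM in never-exposed libraries (log2 ratio -1.52 with SE 0.21, limma adjusted p = 9.8e-05). S100a8, Ngp, Ltf and Camp, which are granule or cytosol proteins of the same cells, were called lower too, and 0 of these falls was called by limma-voom or without group weights, and 3 without the deeper never-exposed library.

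Of matrix proteins, 8 of 18 were called higher and 1 lower. Fn1, fibronectin, read 18.6 and 20.9 CPM in washed-out libraries, against 2.09 and 1.99 CPM in never-exposed ones (log2 ratio 2.77 with SE 0.35, limma adjusted p = 4.6e-05). That call was lost by limma-voom and without group weights (adjusted p up to 0.504). Tgfbi, an adhesive matrix protein, read 1375 and 1360 CPM in washed-out and 796.6 and 850.5 CPM in never-exposed libraries (0.73, adjusted p = 2.7e-05). Without group weights 3 of the list were called higher.

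Lysosomal proteases and hydrolases had 8 of 21 called higher and 1 lower, the median log2 ratio being 0.25. Ctsh, a cathepsin, read 330 and 332 CPM in washed-out libraries, against 149 and 166 CPM in never-exposed ones (1.07, SE 0.10, adjusted p = 2.2e-06 by limma). Tfeb, a transcription factor for lysosomal genes, rose (0.54, adjusted p = 0.0054), a call lost by limma-voom and without group weights (adjusted p up to 0.0718). Without the deeper never-exposed library 4 were called higher.

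**Figure D3:**
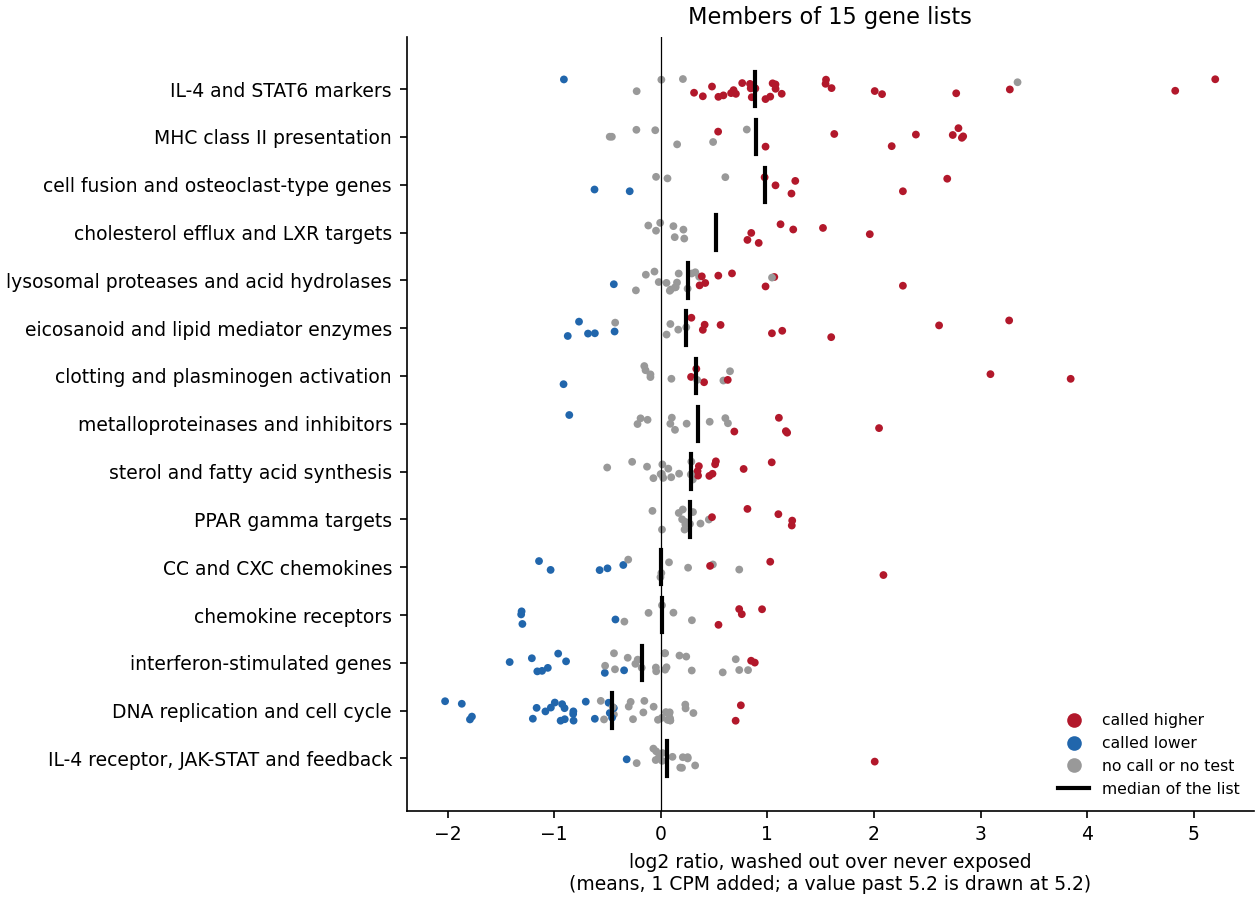
Log2 ratio of washed-out over never-exposed wild-type cells for each member of 15 gene lists, 1 point per gene, with limma calls marked and the median of each list as a line. The IL-4 marker and class II lists lie mostly above 0, and the replication list mostly below. Of 31 interferon-stimulated genes 18 lie below 0, against 5885 of all 11369 genes compared.

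Chemokines divided. Ccl6, a monocyte attractant of rodents, read 861 and 921 CPM in washed-out libraries, against 211 and 207 CPM in never-exposed ones (log2 ratio 2.09 with SE 0.08, limma adjusted p = 3.8e-10). Of the 15 tested, 3 were called higher and 5 lower. Ccl4, an inflammatory chemokine, read 8.63 and 7.60 CPM in washed-out and 19.1 and 16.2 CPM in never-exposed libraries (-1.03, adjusted p = 0.00032), and Ccl3 and Ccl2 were called lower too. Ccl3 was not called without either never-exposed library or the deeper washed-out one, nor Ccl2 without the deeper never-exposed one. The number called lower was 2 without either never-exposed library.

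Of 13 chemokine and chemoattractant receptors, 4 were called higher and 4 lower. Cx3cr1, the fractalkine receptor of resident macrophages, read 40.0 and 38.1 CPM in washed-out libraries, against 106 and 91.0 CPM in never-exposed ones (log2 ratio -1.31 with SE 0.19, limma adjusted p = 0.00017). Fpr2, a receptor for formylated peptides (-1.30), and C5ar1, the complement C5a receptor (-0.43), fell as well. Cmklr1, the chemerin receptor (0.95), and Ccr1 (0.74) rose. The number called lower was 4 in every setting tried.

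Of 17 tested genes of inflammatory cytokines and NF-κB, 0 were called higher and 2 lower, against 13.6% of all genes called in either direction. Tnf read 8.43 and 9.87 CPM in washed-out libraries, against 23.7 and 23.7 CPM in never-exposed ones (log2 ratio -1.28 with SE 0.21, limma adjusted p = 0.00064). Lcn2, an iron-scavenging defence protein, fell to 3.51 and 2.04 CPM in washed-out libraries, against 12.3 and 8.72 CPM in never-exposed ones (-1.61, adjusted p = 0.0026), and that call was lost in 2 settings. Cd14, the endotoxin co-receptor, read 313 and 313 CPM in washed-out and 469 and 475 CPM in never-exposed libraries (-0.59, adjusted p = 3.8e-05).

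Ly6a, which encodes the interferon-inducible surface protein Sca-1, led the genes that fell. It read 11.1 and 16.1 CPM in washed-out libraries, against 140 and 140 CPM in never-exposed ones (log2 ratio -3.27 with SE 0.16, limma adjusted p = 8.5e-10). Its ratio at 24 h of IL-4 over vehicle was -4.43, whereas it was 0.36 at 3 h of a first exposure.

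Interferon-stimulated genes as a list had 9 of 31 called lower and 2 higher, the median log2 ratio being -0.18. Irf7, a transcription factor that amplifies interferon production, read 34.8 and 42.7 CPM in washed-out libraries, against 105 and 105 CPM in never-exposed ones (-1.42, SE 0.11, adjusted p = 3.1e-07 by limma). Oasl2, of the viral RNA-sensing OAS family, read 51.5 and 68.1 CPM in washed-out and 142 and 127 CPM in never-exposed libraries (-1.16, SE 0.12). Bst2, which tethers budding virus, read 130 and 129 CPM in washed-out and 244 and 238 CPM in never-exposed libraries (-0.89, SE 0.09). Gbp3 (0.88) and Rsad2 (0.85) were called higher, the second not without either never-exposed library or without group weights (adjusted p up to 0.114), and Isg15 (-0.44, adjusted p = 0.25) was not called. The same list had a median of -2.17 at 24 h of IL-4 over vehicle.

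Of 46 tested members of the DNA replication and cell cycle list, 22 were called lower and 2 higher, the median log2 ratio being -0.45. Without the deeper never-exposed library the number called lower was 16, and in the other settings 15 to 25. Mcm6, a subunit of the helicase that opens DNA, read 143 and 128 CPM in washed-out libraries, against 342 and 267 CPM in never-exposed ones (-1.16, SE 0.14, adjusted p = 4.3e-05 by limma). Mcm2 (-1.20), Mcm3 (-0.62), Mcm4 (-0.82), Mcm5 (-0.90) and Mcm7 (-0.90), the other subunits of that ring, fell as well.

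Ccnd1 and Ccne1, cyclins of the G1 phase that commit a cell to replicate, fell. Ccnd1 read 93.1 and 83.6 CPM in washed-out libraries, against 320 and 296 CPM in never-exposed ones (log2 ratio -1.79 with SE 0.17, limma adjusted p = 2.2e-06). Ccne1 read 20.2 and 12.03 CPM in washed-out and 34.7 and 35.7 CPM in never-exposed libraries (-1.08, SE 0.24, adjusted p = 0.0040). Ung, which removes uracil from new DNA, read 2.21 and 1.93 CPM in washed-out and 13.7 and 9.27 CPM in never-exposed libraries (-2.02, SE 0.27). Cdkn1a, the p21 inhibitor that halts the cycle, rose, with 397 and 365 CPM in washed-out and 231 and 221 CPM in never-exposed libraries (0.75, SE 0.09, adjusted p = 4.4e-05).

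Mki67, the proliferation antigen, read 631 and 637 CPM in washed-out and 618 and 574 CPM in never-exposed libraries (log2 ratio 0.09, adjusted p = 0.62 by limma). Top2a (-0.03), Cdk1 (0.06), Ccna2 (0.01), Aurka (0.23) and Plk1 (0.23), which act from late replication to mitosis, were not called, and Ccnb2, a mitotic cyclin, was called higher (0.70, adjusted p = 0.0027), a call lost by limma-voom and without group weights. No difference between replication and mitosis genes was tested. At 24 h of IL-4 over vehicle, Ccnd1 had a ratio of 1.41 and Ung of 1.33.

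Of 37 transcription factors linked to alternative activation, 12 were called higher and 6 lower. Bhlhe40, a circadian and immune repressor, read 20.5 and 19.2 CPM in washed-out libraries, against 6.89 and 7.51 CPM in never-exposed ones (log2 ratio 1.345 with SE 0.12, limma adjusted p = 1.1e-06). Kdm6b, a histone H3K27 demethylase, rose (28.0 and 31.3 CPM in washed-out, 9.70 and 15.1 CPM in never-exposed libraries, 1.19). The STAT6-induced factors Egr2 (0.84), Klf4 (0.84) and Irf4 (0.59) were retained in small part, with ratios of 5.57, 3.15 and 2.99 at 24 h of IL-4 over vehicle. Batf3 rose (7.83 and 5.22 CPM in washed-out, 1.04 and 2.10 CPM in never-exposed libraries, 1.55), a call lost by limma-voom. Ets2 (-0.84), Bcl6 (-0.63) and Fos (-0.78) fell, the last not without the deeper never-exposed library (adjusted p up to 0.475 over the settings tried).

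Id3 and Id1, which encode blockers of helix-loop-helix factors, fell. Id3 read 6.22 and 4.77 CPM in washed-out libraries, against 20.6 and 24.4 CPM in never-exposed ones (log2 ratio -1.85 with SE 0.19, limma adjusted p = 6.1e-06). Id1 had a few CPM (-1.16, adjusted p = 0.00084). Both were the only calls among 14 members of their list, near the 13.6% of all genes called in either direction.

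The washed-out state was set beside the state under IL-4, for 10903 genes compared in both. The antagonist experiment shares no sample with the memory table and was normalized separately, so each ratio is relative to its own experiment's control. Of 650 genes beyond 2-fold higher at 24 h of IL-4 over vehicle, 93 (14.3%) were also beyond 2-fold higher after washout, and they made up 55.0% of the 169 on the washout list. In the lower direction 50 genes were on both lists, which is 6.93% of 721 at 24 h and 35.2% of 142 after washout. Without counting-sensitive genes, 42 were on both, or 6.19% of 679 and 53.8% of 78. Over the whole antagonist table, 732 (6.57%) of 11140 were past that fold upward at 24 h and 731 (6.56%) downward.

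Among genes raised at 24 h of IL-4, size at 24 h went along with what remained. Counting-sensitive genes were left out here. The 20 genes with a log2 ratio of at least 5 at 24 h all lay above 0 after washout, between 0.38 and 8.76 with a median of 1.32, and 15 of them were beyond 2-fold higher. Of 39 genes with a ratio of 3 to 5 at 24 h, 36 lay above 0, with a median of 0.90. The 558 genes with a ratio of 1 to 3 had a median of 0.20. Within the top class the outcome varied: Retnla kept 8.76 of 11.53, F7 3.84 of 5.11 and F10 3.09 of 5.46 on the log2 scale, while Tmem26 kept 1.05 of 7.48 and Ear11, an eosinophil-type ribonuclease, 1.54 of 8.92. Among genes lowered at 24 h, the median after washout hardly differed by size. It was -0.05 for the 45 genes with a ratio of -3 or lower, of which 5 were beyond 2-fold lower and 20 above 0. It was -0.06 for the 634 genes from -3 to -1, of which 37 were beyond 2-fold lower and 279 above 0.

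**Figure D4:**
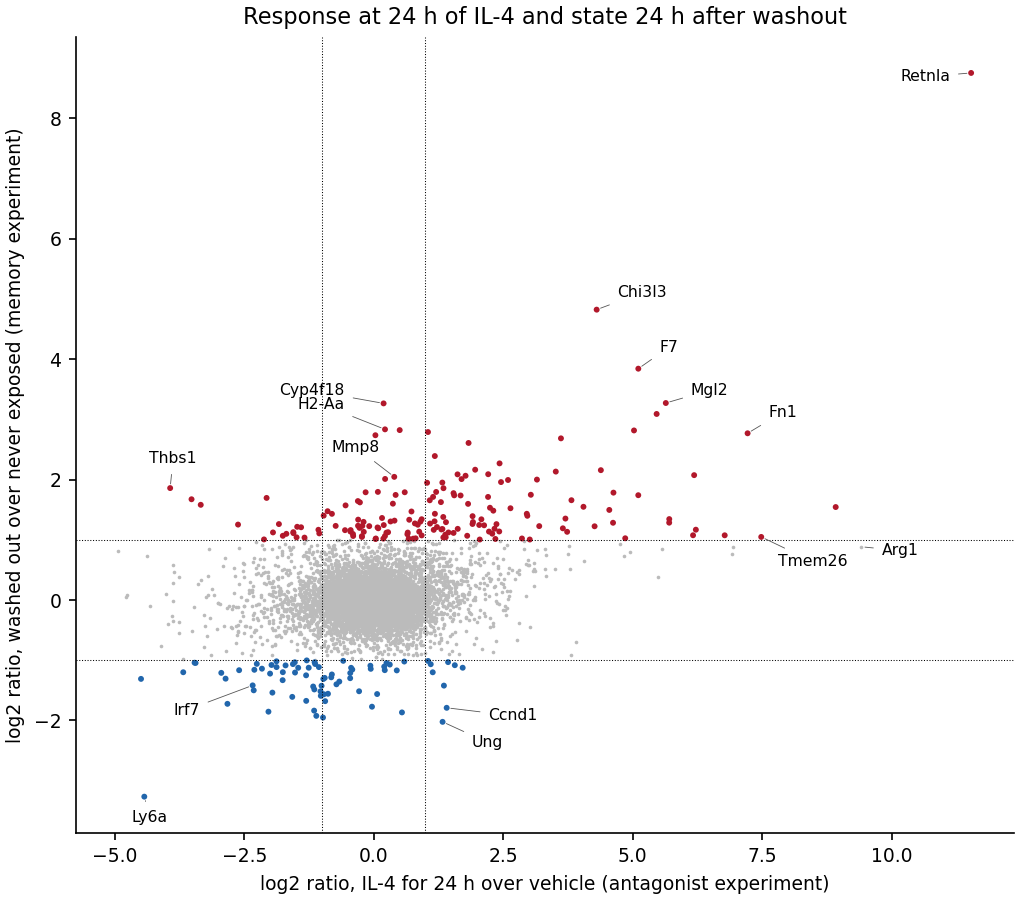
Log2 ratio of IL-4 for 24 h over vehicle on the horizontal axis and of washed-out over never-exposed wild-type cells on the vertical axis, 1 point per gene, counting-sensitive genes left out; the experiments share no samples. Retnla, F7 and F10 are high on both axes, and H2-Aa and Cyp4f18 are high on the vertical axis only. Arg1 and Tmem26 are far out on the horizontal axis. On the vertical axis Arg1 lies within 2-fold and Tmem26 just past it.

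Other genes were beyond 2-fold higher after washout without being so at 24 h of IL-4. Of the 169 genes, 57 lay within 2-fold at 24 h and 19 beyond 2-fold in the opposite direction. The following were chosen after their values were seen. Tns1, which links integrins to actin, read 207 and 212 CPM in washed-out libraries, against 53.5 and 65.6 CPM in never-exposed ones (log2 ratio 1.80 with SE 0.12, limma adjusted p = 3.3e-08), and its ratio at 24 h was 0.08. Hal, which breaks down histidine, read 5.72 and 6.69 CPM in washed-out and 0.522 and 0 CPM in never-exposed libraries, the last of which allows up to 0.331 CPM (2.52, SE 0.27), with 0.01 at 24 h. Hpse, the heparan sulfate-cutting heparanase, read 147 and 153 CPM in washed-out and 45.5 and 54.2 CPM in never-exposed libraries (1.57, SE 0.12), with -0.54 at 24 h.

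Phlda3, an inhibitor of the kinase AKT, read 20.6 and 24.1 CPM in washed-out libraries, against 6.16 and 5.74 CPM in never-exposed ones (log2 ratio 1.75 with SE 0.17, limma adjusted p = 4.2e-06). Trp53inp1 read 124 and 157 CPM in washed-out and 50.8 and 51.9 CPM in never-exposed libraries (1.43, SE 0.13), and Gdf15, a secreted stress cytokine, read 20.5 and 22.1 CPM in washed-out and 6.47 and 8.39 CPM in never-exposed libraries (1.40, SE 0.25). All of them lay within 2-fold at 24 h of IL-4, Phlda3 on the higher side (0.42), and Trp53inp1 (-0.81) and Gdf15 (-0.97) on the lower side. The washout call of Gdf15 was lost by limma-voom (adjusted p = 0.0614).

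Some genes moved in opposite directions in the experiments. Thbs1, the matrix and engulfment protein thrombospondin-1, read 93.4 and 128 CPM in washed-out libraries, against 23.8 and 35.7 CPM in never-exposed ones (log2 ratio 1.86 with SE 0.54, limma adjusted p = 0.032), and had a ratio of -3.93 at 24 h. Its call was lost without either never-exposed library (adjusted p up to 0.188 over all settings tried). Fxyd2, a regulator of the sodium pump, rose after washout (26.1 and 28.8 CPM in washed-out, 5.63 and 11.4 CPM in never-exposed libraries, 1.58) and had -3.34 at 24 h. Gpx3, a secreted glutathione peroxidase (1.70), and Pla2g7, which inactivates platelet-activating factor (1.04), had -2.07 and -1.49 at 24 h. By limma-voom neither Fxyd2 (adjusted p = 0.0509) nor Gpx3 (adjusted p = 0.0895) was called after washout. In the other direction, Slc7a1, an arginine importer, read 16.1 and 14.6 CPM in washed-out and 37.5 and 31.8 CPM in never-exposed libraries (-1.12, adjusted p = 0.00012), although cells 24 h into IL-4 had more of it than vehicle cells. The Slc7a1 call was lost by limma-voom and without group weights (adjusted p up to 0.142).

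The same washout comparison was made in knockout-labelled cells, which tells how the pattern stands in cells labelled as lacking Pparg. In them, 167 of 11230 genes (1.49%) were beyond 2-fold higher and 52 (0.463%) beyond 2-fold lower than in their own never-exposed cells, and these groups share no sample with the wild-type ones. Among 11092 genes compared in both, 123 genes were beyond 2-fold higher in both, which is 75.9% of 162 in knockout-labelled and 71.1% of 173 in wild-type cells. All 173 lay above 0 in knockout-labelled cells. In the lower direction the overlap was 39 genes, or 78.0% of 50 in knockout-labelled and 34.2% of 114 in wild-type cells. Of those 114, 107 lay below 0 in knockout-labelled cells. Without counting-sensitive genes the overlap was 38, or 79.2% of 48 in knockout-labelled and 45.8% of 83 in wild-type cells. All 83 lay below 0 in knockout-labelled cells. All libraries of the knockout-labelled cells are of the counting kind of the shallower wild-type washed-out library.

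By gene, Chi3l3 had a log2 ratio of 4.95 in knockout-labelled and 4.82 in wild-type cells. H2-Aa had 2.39 in knockout-labelled and 2.84 in wild-type cells, and Cyp4f18 had 3.64 and 3.27 in the same order. Ly6a had -2.80 in knockout-labelled and -3.27 in wild-type cells. The difference between the genotypes' responses was itself tested: limma called 1 of 11488 genes (0.0087%), and 822 (7.16%) had an unadjusted p under 0.05. Without the deeper wild-type washed-out library, when the remaining one is of another counting kind than the never-exposed wild-type libraries, 611 were called. Without the shallower one 7 were called. Without the deeper never-exposed wild-type library 0 were called, and without the shallower one 1, Plxnd1, a semaphorin receptor gene.

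That gene was Lyz1, a lysozyme gene and near copy of Lyz2. It averaged 1208 CPM in wild-type washed-out cells, whose libraries could not be separated, against 2548 and 2557 CPM in never-exposed ones (log2 ratio -1.08). In knockout-labelled cells it read 264 and 264 CPM in washed-out libraries, against 346 and 350 CPM in never-exposed ones (-0.40). The response of knockout-labelled minus that of wild-type cells was 0.68 on the log2 scale (SE 0.09, adjusted p = 0.042 by limma). Lyz2 averaged 39.2 CPM in knockout-labelled and 27042 CPM in wild-type washed-out cells, and reads of these copies cannot be told apart with certainty, so the Lyz1 values are uncertain. Its call was lost without either never-exposed wild-type library and without any 1 of the knockout-labelled libraries. With counting kind as a term Lyz1 was not tested, since that fit leaves out values that could not be separated.

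**Figure D5:**
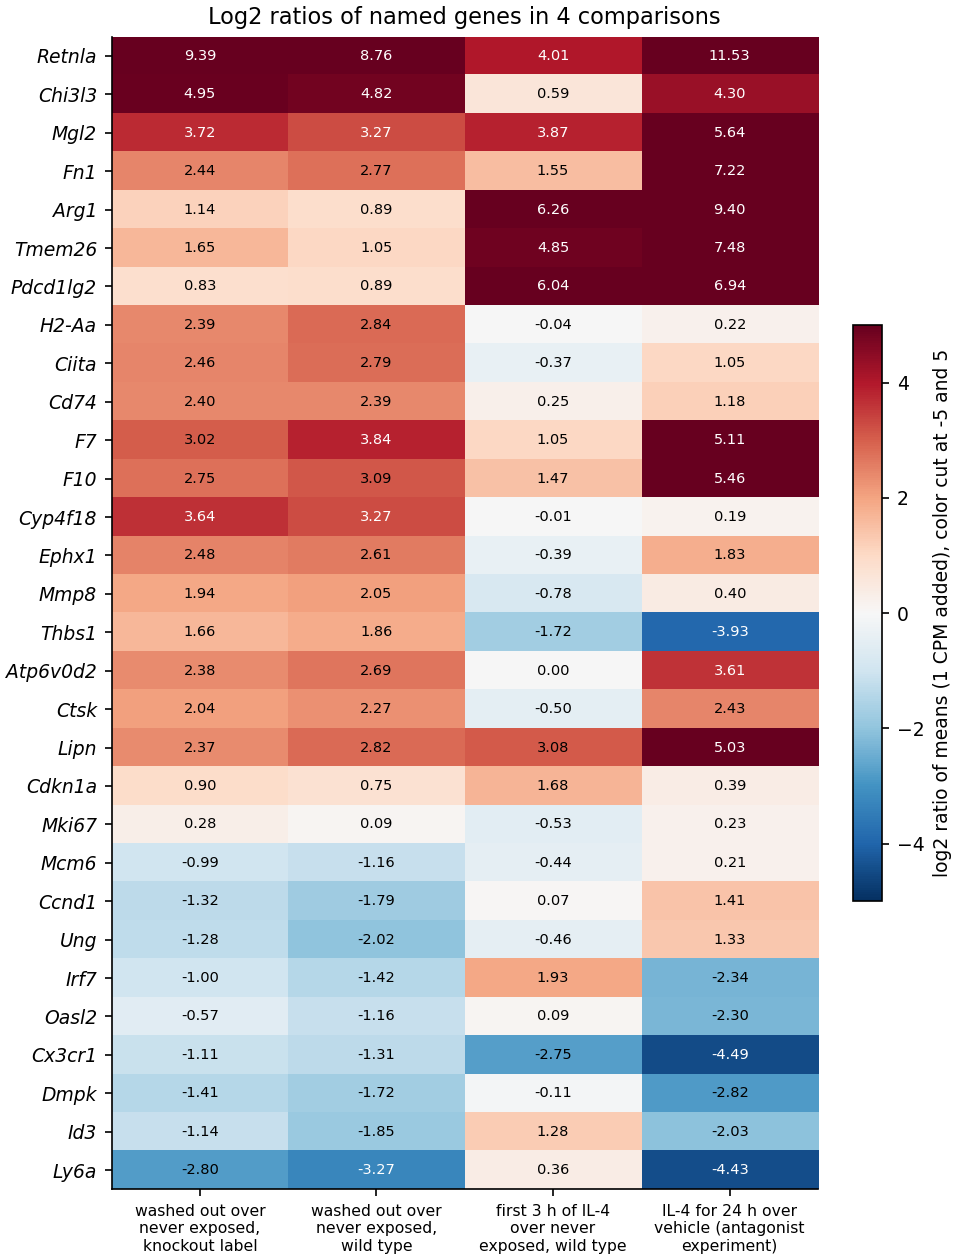
Log2 ratios, as colours and numbers, of 30 genes in 4 comparisons: washed-out over never-exposed knockout-labelled cells, washed-out over never-exposed wild-type cells, a first 3 h of IL-4 over never-exposed wild-type cells, and IL-4 for 24 h over vehicle; the second and the third share the never-exposed samples. H2-Aa has 2.39 and 2.84 in the washout columns and -0.04 at 3 h, while Arg1 is highest at 24 h.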

How the data were processed

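Poly-A RNA was sequenced on an Illumina HiSeq, per the labels' protocols. The submitters' processing notes name mm10 as the build, and Cufflinks 2.0.2 and TopHat2 2.0.7 without the role of either. The authors deposited 1 table per experiment with a mean per group, whose unit is recorded here as signal: CPM, that is reads per library size, without any measure of spread.

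Each mean was separated into whole read counts of its 2 libraries by the CPM of 1 read in each (99.2% of the 113692 values above 0 in the memory table). Replicate numbers of the separated libraries are unknown. Unseparated values entered the test as 1 observation of weight 2, and 19 genes with no separated group were not tested. limma-trend 3.58.1 (R 4.3.3) was run on log2 of CPM plus 1 of all 16 memory libraries, with 1 coefficient and 1 weight per group and Benjamini-Hochberg adjusted p under 0.05. The procedure was tested on simulated data, in which libraries did not differ in how genes with copies are counted. That difference was therefore not covered by the simulation.

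A gene is called counting-sensitive where at least 50% of its 50-base words occur in transcripts of other genes, where the washed-out libraries differ at least 2-fold, or where they differ at least 1.5-fold with at least 10% of words shared. Named genes are the 14 strongest calls each way with at least 5 CPM, up to 4 called members per list and direction, and landmark genes; further list members were added after their values were seen. Members, 40 lists and tests were chosen with earlier results of these data known. Intervals and floors cover counting error only. Alternatives were another weighting, scaling, pseudocount (0.5 and 0.1 CPM), filter, set of libraries and the omission of each library.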

Additional observations from a re-analysis of the deposited data

Results flagged for a closer look

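The washout response of Lyz1 differed between the genotypes in a test of the difference itself, by 0.679 on the log2 scale for knockout-labelled minus wild-type cells (limma). As a near copy of Lyz2, it is uncertain in the counting. The call was lost without group weights, with all genes above 0 and with only the libraries of the groups compared. It was also lost without either never-exposed wild-type library or any 1 knockout-labelled library. With counting kind as a term Lyz1 was not tested.

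Markers of fibroblasts and stroma summed to 2355 CPM in the deeper library of restimulated wild-type cells, which no comparison above uses, and to 88.7 CPM in its shallower partner. The sums were 14.1 and 15.5 CPM in washed-out libraries and 13.9 and 15.9 CPM in never-exposed ones. That group enters the fit of all memory libraries with a weight of 0.099. Without it, 799 genes were called higher and 745 lower.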

How the results depend on the processing

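No paired analysis was possible because the deposited columns carry no replicate numbers. The calls after washout, 789 higher and 749 lower, were 442 and 277 without group weights, 449 and 299 by limma-voom, and 473 and 275 with only the libraries of the groups compared. With all genes above 0 the lower calls were 473. Leaving out 1 library at a time gave 492 to 1056 higher and 286 to 1436 lower. Genes beyond 2-fold, 179 higher and 151 lower, were 297 and 251 with 0.1 CPM added. Without counting-sensitive genes 84 were lower. Leaving out 1 library gave 184 to 221 higher, and 91 to 529 lower, with 91 without the shallower washed-out library and 529 without the deeper one. For the genotype difference, called for 1 gene, the count was 0 without group weights, 0 with all genes above 0, 0 with only the libraries compared, 10 by limma-voom, 6 with counting kind as a term and 7 without counting-sensitive genes, and leaving out 1 library gave 0 to 611. The share of the 24 h response seen after washout stayed within 14.3% to 16.5% (higher) and 6.19% to 10.1% (lower) in the 3 alternatives run.

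Of 167 named genes called, 97 were called in every alternative setting in which they were tested. The other 70 were lost in at least 1 setting, and none reversed. Some of the 15 settings tested fewer of these genes, such as 154 without counting-sensitive genes and 157 with at least 5 CPM. Not each of the 70 losses is named above. Of the 1538 calls, 715 were shared with the fit without group weights. Genes with few reads are limited by depth, since 3 reads correspond to at least 0.301 CPM. In several groups the libraries of the highest genes could not be separated. The cause of these differences between settings was not tested.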

Other observations

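Erythroid, T and NK, and stromal markers were low in the compared libraries. T and NK markers summed to 15.96 and 17.1 CPM in washed-out and 10.7 and 14.4 CPM in never-exposed libraries. Erythroid and megakaryocyte markers summed to 15.7 and 13.6 CPM in washed-out and 11.7 and 11.04 CPM in never-exposed ones. Eosinophil and mast cell markers summed to 17.4 and 13.5 CPM in washed-out and 35.0 and 25.6 CPM in never-exposed libraries, most of it the chemokine receptor gene Ccr3 (12.4 and 8.74 CPM in washed-out, 31.8 and 23.2 CPM in never-exposed libraries).

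Ribosomal protein genes had a median log2 ratio of -0.39, with 0 of 20 called higher and 4 lower by limma, but 13 of them are counting-sensitive and the median of the others was -0.03. Of 28 genes of glycolysis and the citrate cycle, 2 were called higher, near the 6.95% of all genes tested, and 5 lower, against 6.6%. Idh1, which makes NADPH, was among the higher (501 and 582 CPM in washed-out, 263 and 254 CPM in never-exposed libraries, 1.06), and Pkm among the lower (-0.63). Pgk1 and Gapdh, also called lower, are counting-sensitive, and neither was called without the deeper never-exposed library. Of 24 respiratory chain genes 0 were called higher and 1 lower, Cycs, which is counting-sensitive.

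Engulfment genes were mixed, with 5 of 17 called higher and 2 lower. Mfge8, which bridges dying cells to integrins, read 182 and 170 CPM in washed-out and 64.6 and 73.8 CPM in never-exposed libraries (log2 ratio 1.33 with SE 0.14, limma adjusted p = 4.7e-06). Itgav, one of its receptor chains, fell, with 69.1 and 82.9 CPM in washed-out and 151 and 126 CPM in never-exposed libraries (-0.86, adjusted p = 0.00099), a call lost by limma-voom and without group weights (adjusted p up to 0.293). Among 13 genes of arginine and polyamine use 2 rose and 3 fell. Slc7a2 rose (1.08) and Slc7a1 fell (-1.12), and both import arginine.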
